A study of Mus musculus with 32 samples.

Results

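Respiratory complex I (NADH:ubiquinone oxidoreductase) was followed through the nuclear genes of its subunits in 4 tissues of mice given auranofin or vehicle. Every protein-coding gene whose symbol starts with Nduf, then 1 of the letters a, b, c, s or v, then a digit was taken, which gave 37 of the 54532 genes measured. Complex I oxidises NADH in the mitochondrial matrix, passes the electrons to ubiquinone in the inner membrane and pumps protons. Its core consists of nuclear and mitochondrially encoded proteins, around which many supernumerary subunits are arranged in a matrix arm and a membrane arm. Brown fat, a heat-producing tissue, is known for dense mitochondria, and white fat stores lipid with far fewer.

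The libraries came from wild-type mice of the strain labelled C57/Bl6j. Each group ate the high-fat diet labelled 60% HFD over 12 weeks before dosing. Dosing lasted 4 weeks, with 3 doses weekly of vehicle or of 1 mg/kg auranofin, a gold compound known to block thioredoxin reductase. Inguinal white fat (iWAT, subcutaneous), epididymal white fat (eWAT, visceral), liver and brown fat (BAT) each gave 4 vehicle and 4 auranofin libraries, 32 in all. All groups used here shared that diet. The labels do not say whether the libraries of a group came from separate animals, so p-values measure the spread between libraries, which may be technical.

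The members comprised 3 core subunits of the NADH-binding N module, 4 core subunits of the quinone-binding Q module, 9 supernumerary subunits of the matrix arm and 19 of the membrane arm. The remaining 2 match by symbol: Ndufa4, which is known as a subunit of complex IV, and its paralogue Ndufa4l2. Gene lengths ran from 419 nt (Ndufa1) to 8086 nt (Ndufs1) with a median of 1495 nt, against 3422 nt over 22046 protein-coding genes. Of the members, 10 were at most 1000 nt and 4 were over 4000 nt. Libraries held 13606756 to 19205640 reads in genes. A member had at least 16 reads in a library (Ndufa4l2). The library kit keeps no strand, and 16 members share exon bases with another gene. For Ndufb6 (39.0% of exon bases, with Smim27) and Ndufa13 (375 bases of 1251, with Tssk6) the partner lies on the opposite strand, so their reads cannot be parted.

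Ucp1, the brown fat uncoupling protein, followed the tissue labels. It was at 1697 to 2931 FPKM (fragments per kilobase of gene, scaled to sequencing depth) in BAT vehicle libraries. In the vehicle libraries of the other tissues it was at most 0.441. The 8 brown adipocyte markers, Ucp1 among them, summed to 5420 to 9090 FPKM in BAT vehicle libraries. Their sums were 299 to 466 in liver, 113 to 181 in iWAT and 10.9 to 55.8 in eWAT vehicle libraries. Some libraries stood apart. Summed skeletal muscle markers reached 1696 FPKM in iWAT vehicle library 4, 979 in iWAT auranofin library 4, 792 in BAT vehicle library 4, and 3220 and 1325 in BAT auranofin libraries 2 and 4. In eWAT, vehicle libraries 1 and 2 held 4229 and 3923 FPKM of macrophage markers and 2986 and 4773 FPKM of adipocyte markers. Summed hepatocyte markers were at 683 FPKM in iWAT vehicle library 1 and 730 in eWAT auranofin library 2. In bulk tissue, fewer cells of a type and less RNA per cell cannot be told apart.

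The promoters of 32 members were found in RefSeq (GRCm38.p6, 250 bases before to 50 after each start) and searched on both strands for 4 motifs of factors known to act on respiratory genes. They are shown because the members moved together between tissues. The NRF1 motif (GCGCA, any base, GCGC) was in 7 members (21.9%), against 5.19% of 27025 genes. The YY1 motif AAGATGGC was also in 7 (21.9%), against 3.19%, and the ETS motif CCGGAAG in 4 (12.5%), against 9.93%. The ERR motif TCAAGGTCA was in none of these windows, against 0.466% of genes. A match describes letters only. For the NRF1 motif, in capitals, Ndufs6 (chr13:73328483-73328558, minus strand), Ndufa8 (chr2:36049339-36049428, minus strand) and Ndufa11 (chr17:56717642-56717761, plus strand) read as follows.
Ndufs6: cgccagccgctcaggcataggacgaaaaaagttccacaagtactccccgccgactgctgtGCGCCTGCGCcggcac
Ndufa8: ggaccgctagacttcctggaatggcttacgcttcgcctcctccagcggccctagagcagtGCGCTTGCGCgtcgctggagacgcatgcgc
Ndufa11: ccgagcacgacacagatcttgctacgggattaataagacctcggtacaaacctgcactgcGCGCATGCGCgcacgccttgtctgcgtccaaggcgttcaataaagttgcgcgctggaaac

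The YY1 matches of the 7 members lay 23 to 39 bases after the start, in the transcribed part and on the gene's own strand. The motif holds the letters ATG, and whether the matches sit on start codons was not tested. In Ndufs4 (chr13:114388045-114388070, minus strand), Ndufs7 (chr10:80249462-80249491, plus strand) and Ndufs6 (chr13:73328433-73328460, minus strand) the short stretches around the motif, again in capitals, were these.
Ndufs4: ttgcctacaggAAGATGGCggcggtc
Ndufs7: aggccgaggccAAGATGGCggcgctggcgg
Ndufs6: gggtcaccggcAAGATGGCggcggtgct

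On the FPKM scale, complex I transcripts were highest in brown fat and lowest in epididymal fat, but on a TPM scale liver against eWAT had 7 members higher and 12 lower. Among vehicle libraries the mean was highest in BAT for 36 of 37 members and lowest in eWAT for 36. Every BAT library lay above every library of the other tissues for 27 members, and every eWAT library lay below them for 33. How many of all genes separated in this way was not counted, so these 2 counts do not set complex I apart. The median ratio of mean FPKM was 5.71 for BAT over eWAT (range 1.33 to 11.8), 2.44 for BAT over iWAT (0.609 to 5.22) and 2.39 for BAT over liver (1.26 to 5.12). It was 2.22 for iWAT over eWAT (1.16 to 3.15).

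**Figure D1:**
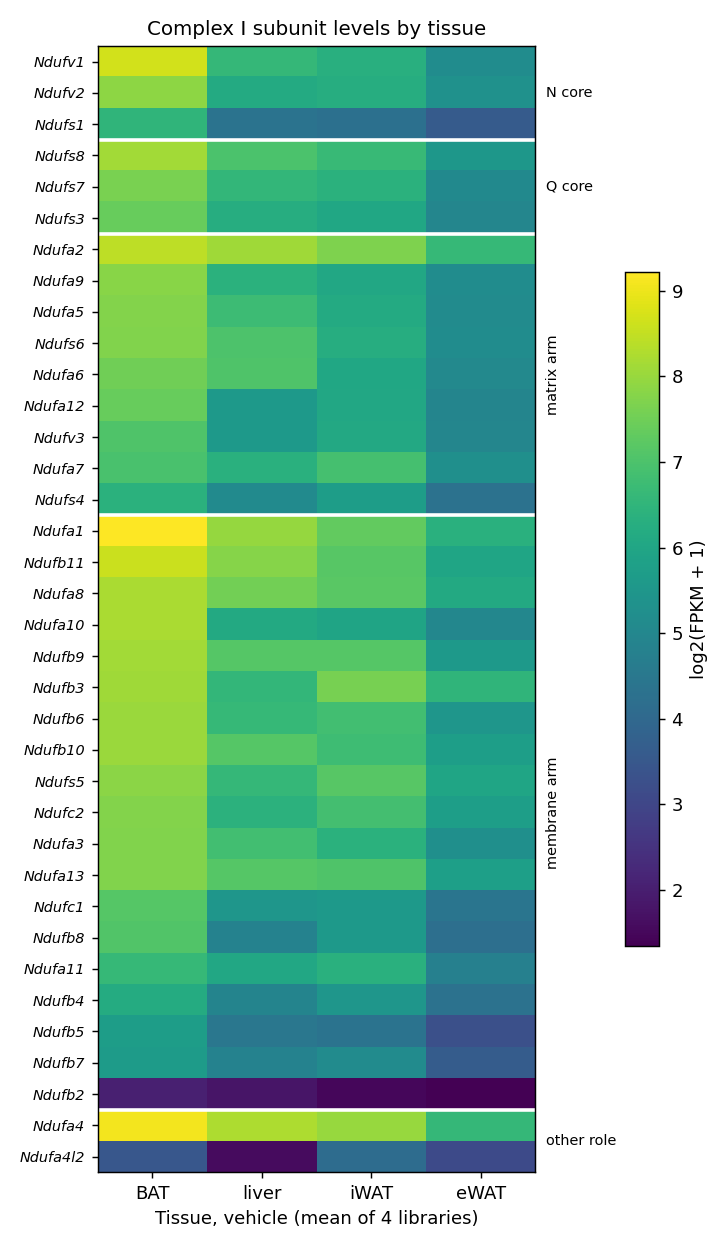
Mean level of 36 members in the 4 vehicle libraries of a tissue, as log2(FPKM + 1) in colour, with genes in rows grouped by role and tissues in columns. On this scale BAT has the highest mean for 36 of 37 members and eWAT the lowest for 36 (the order of liver and eWAT did not hold on a TPM scale), with Ndufa4l2, highest in iWAT and lowest in liver, as the exception.

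The N module core takes electrons from NADH. Ndufv1, which carries the NADH-binding site, was at 526, 378, 403 and 343 FPKM in BAT vehicle libraries 1 to 4, at 101, 96.9, 101 and 83.2 in liver, at 81.8, 74.0, 76.8 and 83.7 in iWAT and at 23.1, 18.8, 46.8 and 51.0 in eWAT. BAT stood above all other libraries and eWAT below them, with eWAT libraries 1 and 2 the lowest. The BAT against eWAT difference of 3.63 ± 0.25 (SE) on the log2(FPKM + 1) scale was the largest of any member (limma adjusted p = 1.13e-08). Ndufs1, the largest core subunit with several iron-sulphur clusters, was at 93.0, 80.3, 87.6 and 95.2 FPKM in BAT and at 9.02, 12.6, 11.2 and 11.6 in eWAT. Its liver values of 18.6, 20.4, 19.3 and 19.1 and iWAT values of 19.3, 18.1, 18.8 and 15.6 FPKM overlapped. Ndufv2 followed at 235 ± 23.9 FPKM (SD, n = 4) in BAT, 71.1 ± 3.66 in liver, 75.1 ± 6.82 in iWAT and 39.5 ± 6.51 in eWAT.

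The Q module core hands electrons to ubiquinone. Ndufs8 averaged 279 ± 39.4 FPKM in BAT, 127 ± 4.00 in liver, 99.7 ± 14.2 in iWAT and 45.0 ± 5.84 in eWAT. Ndufs7 averaged 198 ± 46.3, 93.9 ± 10.6, 81.2 ± 9.03 and 33.2 ± 13.4 in the same order, and Ndufs3 165 ± 27.2, 75.3 ± 7.43, 64.7 ± 7.55 and 30.1 ± 7.17. The core subunits named here were all higher in BAT than in eWAT, iWAT or liver and lower in eWAT than in iWAT by the test. Between liver and iWAT, Ndufs8 alone of them passed, at 0.36 ± 0.13 (adjusted p = 0.0234), and its sign turned on a TPM scale (-0.41).

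Counted over all members, 36 were higher in BAT than in eWAT (25.3% of all genes tested were), with a median difference of 2.48 against -0.01 over all genes. Against iWAT, 32 were higher in BAT (24.4% of all genes) and 1, Ndufa4l2, was lower (25.7%). Between the white depots, 36 were lower in eWAT (24.8%) with a median of -1.14. Liver lay below BAT in 35 (31.8%) and above eWAT in 35 (37.4%), with 1, Ndufa4l2, below eWAT (34.5%). Without the macrophage-rich eWAT vehicle libraries 1 and 2, 31 members were still lower in eWAT than in iWAT (22.1% of all genes), with a median of -0.89. The part of those markers in the difference was not tested further.

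The comparisons of liver with the white depots depended on the scaling. Against iWAT on the FPKM scale 7 members were higher in liver (35.8% of all genes) and 8 lower (33.7%), with a median of 0.13. On a TPM scale, which sets each library's summed FPKM equal, 1 was higher (19.1%) and 25 lower (56.1%) with a median of -0.60, while the median of all genes moved to -0.50. After quantile normalisation 1 was higher (31.1%) and 17 lower (37%). With the length trend removed 14 were higher (38.1%). The count of higher calls was 4 without iWAT vehicle library 2 (34.1% of all genes), liver vehicle library 1 (33.7%), library 2 (33.8%) or library 3 (34%), and 3 without iWAT vehicle library 3 (34.6%). Liver against eWAT went to 7 higher (14.6%) and 12 lower (68.2%) on the TPM scale, with the median of all genes at -0.83, and to 23 higher (33%) and 2 lower (37.1%) after quantile normalisation.

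Between liver and iWAT, single members differed in either direction. Ndufa6, a matrix arm subunit, was at 137, 129, 137 and 128 FPKM in liver and at 82.1, 62.3, 58.4 and 53.2 in iWAT. The groups did not overlap, and the difference was 1.06 ± 0.14 (adjusted p = 5.72e-06). Ndufb3, of the membrane arm, ran the other way at 117, 99.8, 84.7 and 70.5 FPKM in liver and 176, 169, 158 and 266 in iWAT, a difference of -1.03 ± 0.27 (adjusted p = 0.00293). Ndufb8, also of the membrane arm, differed by -0.74 ± 0.19 (adjusted p = 0.00221). Of the members with the smallest BAT against iWAT differences, Ndufa7 gave 0.08 ± 0.24 and Ndufa11 0.26 ± 0.15, and neither passed.

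Ndufa4 was among the 3 most abundant members in each tissue, at 543 ± 125 FPKM in BAT, 304 ± 20.3 in liver, 253 ± 30.9 in iWAT and 94.2 ± 19.6 in eWAT. Ndufa4l2 had an order of its own, with 18.8, 18.4, 14.4 and 14.7 FPKM in iWAT, 10.7, 11.7, 8.62 and 9.41 in BAT, 6.69, 5.97, 7.93 and 9.81 in eWAT and 1.31, 1.36, 2.38 and 2.84 in liver. All iWAT libraries were above, and all liver libraries below, the rest, while BAT and eWAT overlapped. It was lower in BAT than in iWAT by 0.66 on the log2 scale (fitted difference -0.66 ± 0.18, adjusted p = 0.00561), and the call was lost with the length trend removed (-0.40, adjusted p = 0.0538). Ndufb2, of the membrane arm, was lowest of all in BAT, iWAT and eWAT, at 1.55 ± 0.344 FPKM in eWAT and 3.10 ± 0.752 in BAT, over a gene length of 5628 nt. It shares 145 exon bases with Gm42420 on the same strand, and 146 with Braf and 156 with Gm16272 on the opposite strand. The part of these overlaps and of the gene length in its low FPKM was not tested.

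To set the tissue-wide level aside, each member was also expressed relative to the median of the 37 in its library, as a difference on the log2(FPKM + 1) scale. The members described here were chosen after their values were seen. Ndufv1 lay 0.96 ± 0.14 (SD, n = 4) above the median in BAT but 0.11 ± 0.10 above it in liver. Ndufa7 lay at -0.76 ± 0.21 in BAT and at 0.59 ± 0.21 in iWAT. Ndufa11, a membrane arm subunit, lay at -1.12 ± 0.17 in BAT and 0.05 ± 0.12 in iWAT. Ndufb8 lay at -1.65 ± 0.14 in liver and -0.66 ± 0.16 in BAT. Ndufs3 had the smallest spread of this value over the 32 libraries (SD 0.0982), and its vehicle means ran from -0.35 in BAT to -0.23 in eWAT.

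**Figure D2:**
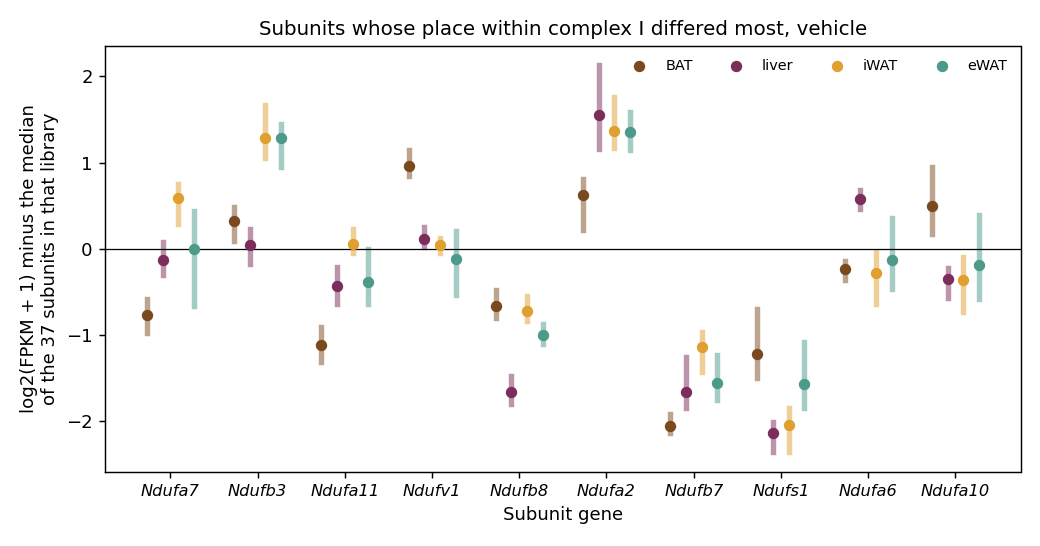
Level of 10 members relative to the median of the 37 in the same library, on the log2(FPKM + 1) scale; points are means of 4 vehicle libraries and bars run from the lowest to the highest library. Ndufv1 sits at 0.96 in BAT and Ndufa7 at -0.76, while both lie nearer 0 in liver.

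After auranofin, no member passed the test in any tissue, and the clearest displacement was in inguinal fat. All 37 members had a lower mean there (52.2% of all genes did), with a median log2 change of -0.73 against -0.02 over all genes, and 27 had an unadjusted p under 0.05 (12.8% of all genes tested did so in that direction). Neither direction held a called gene among the 13164 tested (0% called). Auranofin libraries 1 and 4 lay below every vehicle library for 37 members and library 3 for 36, while library 2 lay above every vehicle library for 21. For such positions of single libraries, here and in the other tissues, the share of all genes was not counted.

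**Figure D3:**
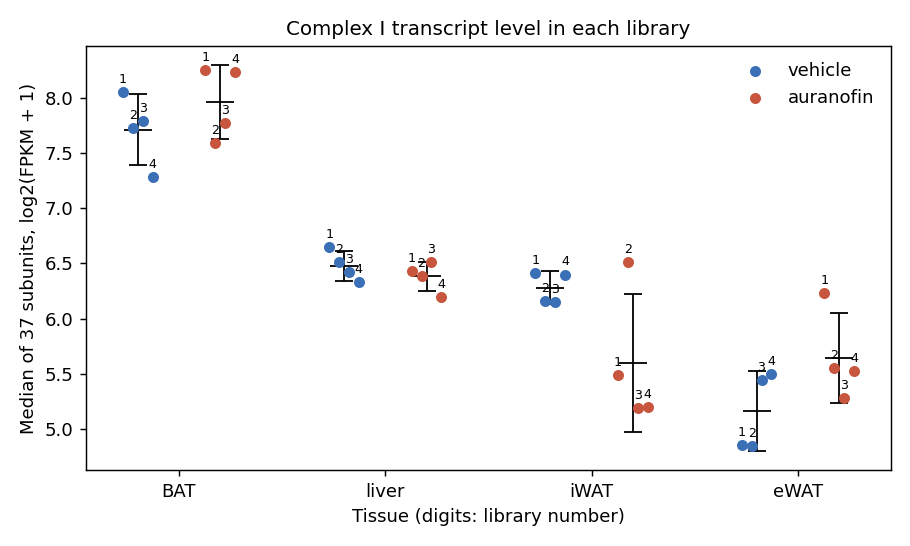
Median of the 37 members in each library as log2(FPKM + 1); digits are library numbers, black lines the mean ± SD of 4 libraries, blue vehicle and red auranofin. In iWAT, auranofin library 2 is at 6.51 and the other 3 lie between 5.19 and 5.49, below vehicle libraries at 6.15 to 6.41.

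Ndufs4, a matrix arm subunit needed for a complete N module, was at 58.0, 52.2, 53.5 and 45.7 FPKM in iWAT vehicle libraries and at 22.5, 48.3, 18.8 and 19.8 in auranofin libraries. Only auranofin library 2 reached the vehicle range. The change of -1.02 ± 0.27 had the smallest p of the members (adjusted p = 0.204). Ndufs8, in the Q module, was at 119, 102, 89.4 and 88.8 against 52.2, 93.1, 45.7 and 40.8 FPKM, a change of -0.84 ± 0.25 (adjusted p = 0.204). Ndufb9, of the membrane arm, was at 164, 131, 138 and 124 against 65.2, 140, 55.7 and 54.0 FPKM, with library 2 again inside the vehicle range. Ndufa13 (-0.90 ± 0.27), Ndufb7 (-0.89 ± 0.27) and Ndufa12 (-0.80 ± 0.25) had the next smallest p, each with an adjusted p of 0.204. Among core subunits the changes ran from -0.30 for Ndufs1 to -0.84 for Ndufs8, Ndufa4 gave -0.79 and Ndufa4l2 -0.38. The median was -0.53 in the N module core, -0.68 in the Q module core, -0.80 in the matrix arm and -0.75 in the membrane arm.

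The calls depended on auranofin library 2 and on the model. Without that library 36 members were lower (21.3% of all genes were) with a median of -1.06, and Ndufs4 gave -1.32 (adjusted p = 0.000658). Leaving out any other single iWAT library gave no call and medians of -0.58 to -0.76. Library quality weights gave 36 lower members (26.3% of all genes), and 1 fit of all 32 libraries gave 12 (3.43%). Summed FPKM over all genes was 259520 to 275614 in auranofin libraries 1, 3 and 4. It was 368676 in library 2 and 340536 to 369437 in vehicle libraries. A TPM scale sets these sums equal, and the members' median change in iWAT on that scale is not given here. Auranofin libraries 1, 3 and 4 also had 0.229% to 0.247% of their reads in ribosomal RNA genes, against 0.0847% in library 2 and 0.0684% to 0.121% in vehicle libraries. Small nucleolar RNA genes held 0.00257% to 0.00322% of their reads, against 0.00112% in library 2 and 0.00115% to 0.00174% in vehicle libraries. Libraries 1, 3 and 4 had reads in 21667 to 21924 genes, against 19949 in library 2 and 19839 to 21368 in vehicle libraries. Their summed adipocyte markers were 8409 to 9590 FPKM, against 15114 in library 2 and 12061 to 14334 in vehicle libraries. Over all 4 auranofin libraries, adipocyte markers had a lower mean in 8 of 8, brown adipocyte markers in 7 of 8 and hepatocyte markers in 10 of 10, and endothelial markers a higher mean in 7 of 8. B cell and lymph node markers had a lower mean in 8 of 8 and red blood cell markers in 6 of 6. Summed B cell and lymph node markers were 318 to 373 FPKM in auranofin libraries 1, 3 and 4. They were 717 FPKM in library 2 and 622 to 788 in vehicle libraries. The part of any of these markers, read shares or gene counts in the result was not tested.

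In eWAT 35 of 37 members had a higher mean after auranofin (50.4% of all genes did), with a median of 0.43 against 0.00 over all genes, and 8 had an unadjusted p under 0.05 (5.32% of genes did in that direction). None was called (0% of genes), and 1 fit of all libraries called 1, Ndufs7 (adjusted p = 0.0489; 3.55% of genes). Ndufs6, a zinc-binding matrix arm subunit, was at 23.0, 28, 42.5 and 46.5 FPKM in vehicle and 74.3, 47.8, 46.8 and 52.6 in auranofin libraries. It was the only member whose groups did not overlap (3% of all genes were higher in this way), with a change of 0.68 ± 0.26 (adjusted p = 0.429). Ndufs7 was at 26.8, 17.5, 42.6 and 45.8 against 75.8, 62.1, 42.7 and 49.0 FPKM, a change of 0.83 ± 0.32 (adjusted p = 0.429). Ndufa3 (0.98 ± 0.40), Ndufb8 (0.68 ± 0.27), Ndufa1 (0.65 ± 0.26) and Ndufb10 (0.56 ± 0.24) followed with the same adjusted p. Auranofin library 1 was the highest of 8 for 36 members, and vehicle libraries 1 and 2, rich in macrophage markers, were the lowest for 16 and 14. The median was 0.22 without auranofin library 1 and 0.20 without vehicle libraries 1 and 2. Reads in ribosomal RNA genes made up 0.306% to 0.643% in auranofin libraries 2 to 4, 0.0796% in library 1 and 0.0134% to 0.214% in vehicle libraries, and the part of that share was not tested. Adipocyte markers had a higher mean after auranofin in 7 of 8 (summed 2986 to 6938 FPKM in vehicle and 6481 to 12629 in auranofin libraries) and hepatocyte markers in 10 of 10 (7.84 to 60.3 against 10.45 to 730 FPKM). Macrophage markers had a lower mean in 8 of 8 (2079 to 4229 against 1142 to 2539 FPKM), and the part of these markers was not tested either. By role, the medians were 0.08 in the N module core, 0.46 in the Q module core, 0.40 in the matrix arm and 0.44 in the membrane arm. Within the N module core, Ndufv1 gave 0.76, Ndufs1 0.08 and Ndufv2 0.04. Ndufv2, Ndufs1 and Ndufs8 changed sign under a TPM scale.

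**Figure D4:**
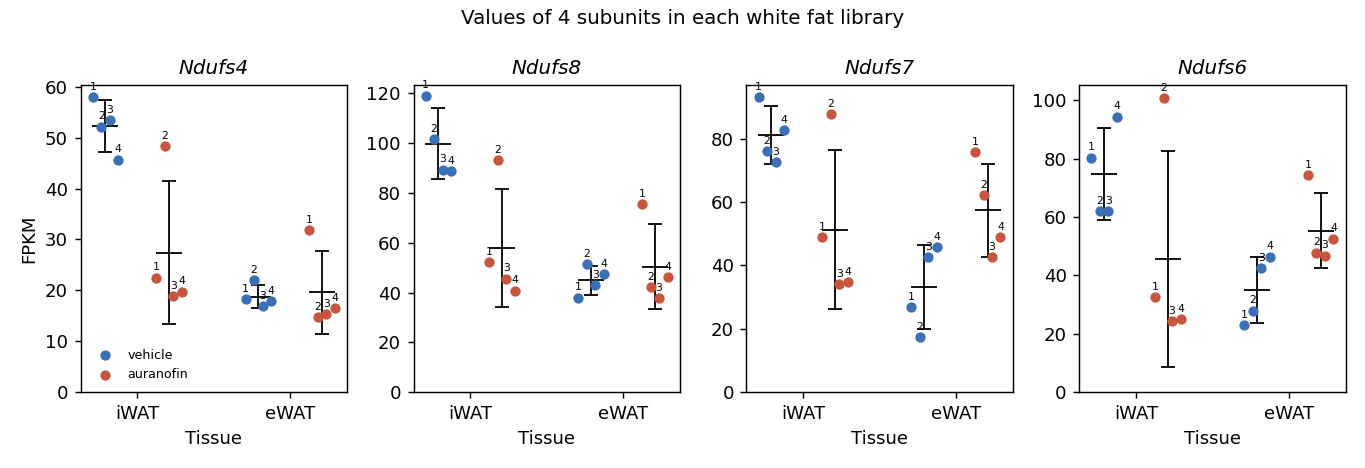
FPKM of Ndufs4, Ndufs8, Ndufs7 and Ndufs6 in each white fat library, with library numbers, mean ± SD of 4 libraries as black lines, blue vehicle and red auranofin. In iWAT, auranofin library 2 stands with the vehicle libraries, as for Ndufs4 at 48.3 FPKM, and in eWAT auranofin library 1 is the highest for Ndufs6 at 74.3 FPKM.

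BAT and liver showed less. In BAT 34 members had a higher mean (55% of all genes did) with a median of 0.25 against 0.02, and none reached an unadjusted p of 0.05 (4.66% of genes did in that direction; 0% were called higher and 0.023% lower). Ndufs3 was at 191, 164, 178 and 128 FPKM in vehicle and 254, 162, 204 and 228 in auranofin libraries, a change of 0.35 ± 0.17 (adjusted p = 0.484). Ndufa11 gave 0.39 ± 0.20, Ndufb9 0.33 ± 0.17, Ndufa7 0.29 ± 0.15, Ndufa6 0.36 ± 0.19 and Ndufb5 0.25 ± 0.13, with adjusted p from 0.494 to 0.518. Vehicle library 4, which carried muscle markers, was the lowest of 8 for 30 members. The median was 0.13 without it and 0.17 without the 3 libraries with over 500 FPKM of muscle markers. Brown adipocyte markers had a higher mean in 8 of 8 (summed 5420 to 9090 FPKM in vehicle and 7579 to 12266 in auranofin libraries), muscle markers in 12 of 12, and macrophage markers a lower mean in 8 of 8 (229 to 433 against 145 to 273 FPKM). Their part in the result was not tested. In liver 14 members lay above and 23 below 0 (52.3% of all genes were below) with a median of -0.03. None had an unadjusted p under 0.05 there (2.5% of genes did as higher and 3.54% as lower; 0% were called). Ndufa9 was at 84.8, 82.8, 83.6 and 77.7 FPKM in vehicle and 73.6, 76.0, 81.4 and 70.8 in auranofin libraries, a change of -0.12 ± 0.07 (adjusted p = 0.809). Ndufv1 gave -0.15 ± 0.09, Ndufa6 0.13 ± 0.09, Ndufa1 -0.15 ± 0.11 and Ndufb6 -0.18 ± 0.14.

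The changes in the white depots were set against each other as an interaction. Those of eWAT exceeded those of iWAT for all 37 members by a median of 1.19, 34 of them at an unadjusted p under 0.05 (13.3% of genes), but none passed (0% called). Ndufa12 had the smallest p at 1.2 ± 0.33, followed by Ndufa13 at 1.32 ± 0.37, Ndufs7 at 1.59 ± 0.45, Ndufb8 at 1.48 ± 0.42, Ndufb7 at 1.33 ± 0.40 and Ndufa7 at 1.59 ± 0.49, each with an adjusted p of 0.177. For iWAT against BAT the median was -0.97 and the smallest adjusted p was 0.106, for Ndufs4 at -1.24 ± 0.32, with 27 members at an unadjusted p under 0.05 (13.4% of genes; 0% were called lower and 0.0224% higher). Ndufs8 (-1.12 ± 0.31), Ndufb9 (-1.25 ± 0.35), Ndufa12 (-1.02 ± 0.30), Ndufb7 (-1.11 ± 0.33) and Ndufv2 (-0.94 ± 0.28) came next, with adjusted p up to 0.114. Without iWAT auranofin library 2, 33 members passed against eWAT (9.42% of genes) and 35 against BAT (16% of genes). For eWAT against BAT the smallest adjusted p was 0.777 (Ndufb2, -0.46 ± 0.24), and for liver against the 3 fat depots averaged 0.868 (Ndufa4l2, 0.30 ± 0.21), with 0% of genes called in either.

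Gene length moved with these changes, and short protein-coding genes as a class shifted in the 3 fat depots. In iWAT the 24 members of 400 to 2000 nt had a median of -0.78, against -0.33 for all 1683 protein-coding genes of that length tested. The 13 members over 2000 nt had -0.61, against 0.02 for all 9951 of that length. In eWAT the medians were 0.50 against 0.20 for the shorter and 0.26 against -0.03 for the longer genes. In BAT they were 0.27 against 0.11 and 0.22 against 0.01. Across the 37 members the change correlated with log length at Pearson r = 0.37 in iWAT, -0.49 in eWAT and -0.27 in BAT, a description over genes that share the same libraries. With each library's trend on length removed, the members' median was -0.41 in iWAT, 0.22 in eWAT and 0.17 in BAT.

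**Figure D5:**
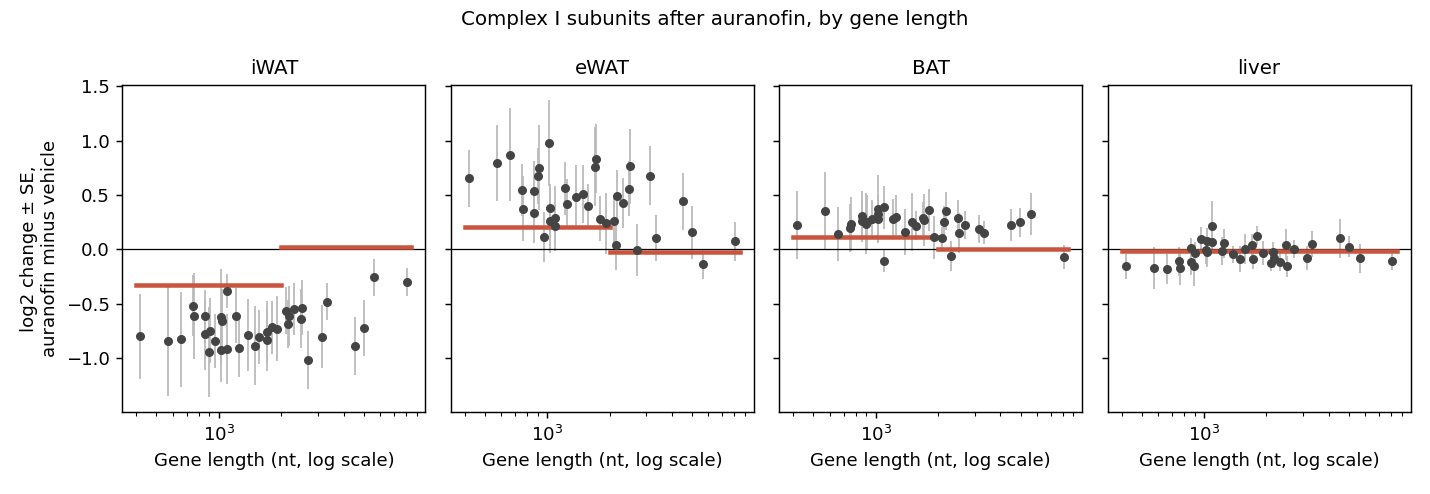
Change after auranofin of each member (points, log2(FPKM + 1) scale, ± SE) against gene length in nt on a log axis, by tissue; red lines are medians of all protein-coding genes of 400 to 2000 nt and over 2000 nt. In iWAT all 37 points lie below 0, with medians of -0.78 and -0.61 where the red lines are at -0.33 and 0.02.

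Other genes of the pathway stood beside the members as follows. In iWAT none was called. The 7 complex I genes of mitochondrial DNA all had lower means, with a median of -0.68 and the smallest p for mt-Nd3 at -1.42. Of 18 assembly factors, which build the complex without staying in it, 16 were below 0 with a median of -0.43 (Ndufaf6 -0.69, Ndufaf2 -0.72). Ndufab1, the acyl carrier subunit outside the symbol rule, gave -0.61. The 40 tested subunits of complexes II to V had a median of -0.72, the 77 mitochondrial ribosomal proteins -0.52 and the 79 cytosolic ribosomal proteins -0.64. The 12 tested regulators of respiratory genes, such as Tfam at -0.24, had a median of -0.04. In eWAT the nuclear lists had medians of 0.38 (complexes II to V), 0.25 (mitochondrial ribosome) and 0.15 (cytosolic ribosome), while 6 of the 7 mitochondrial genes lay below 0 with a median of -0.04. In BAT the mitochondrial genes had a median of 0.25, as did the 37 members, with 0.23 for complexes II to V, 0.22 for Ndufab1, 0.20 for the mitochondrial and 0.15 for the cytosolic ribosomal proteins.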

How the data were processed

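Gene expression was measured by RNA sequencing in 32 libraries. The authors deposited FPKM for 54532 genes. Per the submitters' processing notes, the build was mm10 and the tools were STAR 2.6.1d, featureCounts 1.5.0-p3, CASAVA and DESeq2 1.20.0, with no roles given. FPKM times gene length gave whole reads in 100% of values within 0.1 read; depth is the sum of these rebuilt reads. Groups came from the labels. The members and lists were chosen with earlier results of these data known, and named members follow a rule (core subunits, Ndufa4 and Ndufa4l2, up to 6 smallest p per auranofin comparison, extremes between tissues), except 1 member whose own values are not reported here; counts and medians over the 37 include it.

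Members were tested with limma 3.58.1 under R 4.3.3, using moderated statistics with a mean-variance trend on log2(FPKM + 1), over all genes with a mean of 0.5 FPKM or more, Benjamini-Hochberg adjusted p under 0.05. A change on this scale understates that of low genes. Tissues were compared in 1 fit of 16 vehicle libraries. Figures used matplotlib 3.10.9 (Python 3.11.15).

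The fits were tested on simulated data, 20 draws each with 200 changed genes. In the auranofin comparisons the share of false calls averaged 0.0784 (iWAT, 13184 genes), 0.0824 (eWAT, 13858 genes), 0.0681 (liver, 13140 genes) and 0.0674 (BAT, 13068 genes), above the nominal 0.05. Among genes over 2 FPKM it was 0.0166, 0.0202, 0.0191 and 0.0216. Of 1.5-fold changes, 0.208, 0.19, 0.156 and 0.15 were recovered in the same order. The simulated libraries had the same fixed spread for every gene, and none was set apart from the others of its group. These shares therefore do not give the power or the false calls of the fits on the real libraries, where single libraries stood apart.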

Additional observations from a re-analysis of the deposited data

Results flagged for a closer look

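In groups of 4 libraries, 1 library lay far from the other 3 for 4 of the values reported. Ndufa4 was at 234 FPKM in eWAT auranofin library 1. In iWAT auranofin library 2, Ndufa4 was at 311 FPKM, Ndufb9 at 140 FPKM and Ndufs4 at 48.3 FPKM. Outside that set, Ndufb3 at 266 FPKM in iWAT vehicle library 4 also lay apart. Over all members and groups this held for 27 of 296, of which 14 were in iWAT auranofin and 7 in eWAT auranofin libraries. Chance alone gives about 1 in 20 for separate values. The members of a group share the same 4 libraries and moved together, so that rate cannot be set against the count of 27. The share over all genes was not counted.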

How the results depend on the processing

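Other processing was tried 1 choice at a time: pseudocount, filter on low values, TPM scale, quantile normalisation, voom on the rebuilt reads, quality weights, 1 fit of all libraries, the length trend removed and each library left out. Leaving out muscle-rich or macrophage-rich libraries was chosen after seeing the data. The TPM scale moved the median of all genes by up to -0.83 (liver against eWAT), by 0.27 for eWAT against iWAT, -0.26 for BAT against iWAT, -0.59 for BAT against eWAT, 0.19 for auranofin in iWAT and -0.11 in eWAT. The cause of the differences below was not tested. Low counts limit Ndufa4l2 (16 to 419 reads in a library), and low FPKM limits Ndufb2, which had 109 to 476 reads.

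For auranofin in iWAT, members called lower numbered 36 with quality weights, 12 with 1 fit of all libraries, and 0 to 36 with 1 library left out. In eWAT, 1 fit of all libraries called 1 higher, Ndufs7, at 3.55% of all genes. With 1 library left out, 0 to 33 members passed as higher in the change of eWAT against iWAT, 0 to 35 as lower in iWAT against BAT (1, Ndufs4, without BAT auranofin library 2), and 3 to 9 were higher in liver than in iWAT. Whether tissues with the same replicate number came from 1 animal was not settled. Same-numbered iWAT vehicle and auranofin libraries correlated at 0.0595 to 0.387, and 3 of 4 correlated best with their own number. Their treatments differ, so this pair cannot answer that. Among vehicle libraries, same-numbered liver and BAT correlated at 0.0257 to 0.153, and 3 of 4 correlated best with their own number. Every other pair of vehicle tissues had a negative lowest correlation. Own-number matches were 2 of 4 for iWAT with BAT, iWAT with liver and eWAT with liver. They were 1 of 4 for iWAT with eWAT and 0 of 4 for eWAT with BAT. With the replicate block, no member was called in any auranofin comparison, and 5 members were higher and 8 lower in liver than in iWAT. The share of all genes called with the block is not given here. In the main fit 35.8% of all genes were higher and 33.7% lower in liver than in iWAT.

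The median difference for eWAT against iWAT was -0.71 on the TPM scale, -0.84 after quantile normalisation and -0.80 with the length trend removed. That for BAT against iWAT was 0.88 on the TPM scale, and 0 members were lower there with the length trend removed. The median was 1.70 for BAT against eWAT (TPM), and -1.57 (TPM) and -1.70 (quantile) for liver against BAT. Liver against iWAT gave 1 higher, 25 lower and a median of -0.60 (TPM), 1 higher, 17 lower and -0.30 (quantile), and 14 higher with the length trend removed (38.1% of all genes). Liver against eWAT gave 7 higher, 12 lower and 0.0838 (TPM), and 23 higher (33% of all genes), 2 lower (37.1%) and 0.48 (quantile). The change in eWAT against iWAT had a median of 0.75 (TPM), 0.74 (quantile) and 0.68 (length), and that in iWAT against BAT -0.55 (quantile).

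Single members changed sign as follows. After auranofin, Ndufa4l2 gave 0.0341 in iWAT and -0.0365 in eWAT with the length trend removed. In eWAT, Ndufv2 gave -0.117 (TPM), -0.0363 (quantile), -0.0694 (length) and -0.0129 (weights), and -0.155 to 0.171 with 1 library left out (below 0 without auranofin library 1 or vehicle library 3). Ndufs1 gave -0.0741 (TPM) and -0.0251 (weights), and -0.0181 to 0.213 with 1 left out (below 0 without auranofin or vehicle library 1). Ndufs8 gave -0.0418 (TPM) and -0.157 (length), and -0.0910 to 0.237 with 1 left out (below 0 without auranofin library 1). On the TPM scale, Ndufb2 gave 0.15 for eWAT against iWAT, Ndufa4l2 -0.36 for BAT against eWAT, and Ndufa7 -0.30 and Ndufa11 -0.11 for BAT against iWAT, where Ndufa7 gave -0.0067 (without BAT vehicle library 3) to 0.178 with 1 left out. For liver against iWAT the TPM values were -0.0130 for Ndufs6, -0.13 for Ndufa1, -0.49 for Ndufv1, -0.62 for Ndufs1, -0.54 for Ndufs3, -0.55 for Ndufs7, -0.41 for Ndufs8 and -0.49 for Ndufa4. The quantile values were -0.24 for Ndufv1, -0.14 for Ndufs1, -0.23 for Ndufs3, -0.30 for Ndufs7, -0.17 for Ndufs8 and -0.37 for Ndufa4, and Ndufv2 gave 0.0236 with the length trend removed. For liver against eWAT, Ndufb3 gave -1.11 (TPM), -0.87 (quantile), -0.24 (length), -0.31 without eWAT vehicle libraries 1 and 2, and -0.13 to 0.231 with 1 left out (below 0 without eWAT or liver vehicle library 1). Ndufb2 gave -0.35, Ndufv2 -0.34 and Ndufs1 -0.37 there on the TPM scale.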
